A study of Mus musculus with 8 samples.

Results

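The genes described here are 10 markers of liver endothelium: Pecam1, Cdh5, Kdr, Tek, Tie1, Eng, Stab1, Lyve1, Clec4g and Oit3. They were taken as a list of names, and every probe set that the platform annotation pairs with exactly 1 of them was used. This gave 14 probe sets for the 10 genes, out of 20380 probe sets for 12393 genes on the array. Of these genes 6 had 1 probe set and 4 (Cdh5, Eng, Lyve1 and Clec4g) had 2. Liver RNA came from 4 WT and 4 TrxR1/Gsr-null mice, all female, 4 weeks old and of C57BL/6J background, with 1 Affymetrix 3′ array for each animal. No treatment is named, and all livers were collected in the late morning. The label TrxR1/Gsr-null stands for loss of the cytosolic thioredoxin reductase (gene Txnrd1) and of glutathione reductase (Gsr). The labels do not give the promoter or the cell type of either deletion, so they do not say whether endothelial cells carried it.

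Blood vessels of every organ are lined by endothelial cells, joined to each other through the cadherin Cdh5 and the adhesion molecule Pecam1, and kept in shape by growth factor receptors on their surface. Most endothelium of the liver is sinusoidal. It has open pores, no ordinary basement membrane and a large set of scavenger receptors that clear waste proteins, hyaluronan and immune complexes from the blood, and it differs from the endothelium of the larger portal and central vessels. Endothelial cells are a minor part of the liver's RNA, so these genes were read here against a background made mostly by hepatocytes.

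Each value is a log2 expression level after GCRMA, a method that estimates background from probe sequence, and a log2 difference of 1 is a doubling. A probe set's level cannot be set against another probe set's level, so only differences between animals are described. Differences are TrxR1/Gsr-null minus WT, tested with limma over 7534 genes above a low-value limit of 3.38, and the call threshold was an adjusted p of 0.05. Gsr was lower in all 4 null livers (5.82 to 6.31) than in any WT liver (7.03 to 7.21), as its label says. The Txnrd1 probe set used was higher in the null livers (11.65 to 12.07 against 9.56 to 9.93), against its label, and since no label gives the part of the gene that was removed, this probe set may lie outside it and check nothing. Hepatocyte markers averaged 12.4 to 13.1 on every array. WT replicates 3 and 4 stood apart, with interquartile ranges of 3.97 and 3.74 against 4.31 to 4.44 on the other arrays. The gap between the Actb probe sets of the 3′ and the 5′ end, which grows as RNA degrades, was 1.498 and 1.57 log2 units on those arrays and 1.76 on TrxR1/Gsr-null replicate 3, against 1.01 to 1.17 elsewhere. The like gap of Gapdh did not set these arrays apart, at -0.35 to -0.23 on them and -0.70 to -0.26 on the others. Nothing in the labels says that the arrays differed in handling.

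None of the 10 endothelial markers was called. Means were lower in TrxR1/Gsr-null liver for 8 of the 10 genes and higher for Tek and Lyve1. By limma over all genes 2.15% of genes were called lower and 4.47% higher. At an unadjusted p under 0.05 limma gave 1 marker lower, Eng, and 0 higher, where 7.92% of all genes were lower and 14.9% higher. The median difference of the 10 markers was -0.38, beside 0.10 for all genes, and 39.9% of all genes had a lower mean in the null livers. In bulk liver, fewer endothelial cells and less RNA in each of them cannot be told apart. Of the 10 confidence intervals (95%), 9 held 0. Those of Pecam1, Cdh5, Kdr and Tie1 reached below a log2 difference of -1, so these 8 arrays do not exclude a fall of that size in these genes.

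**Figure D1:**
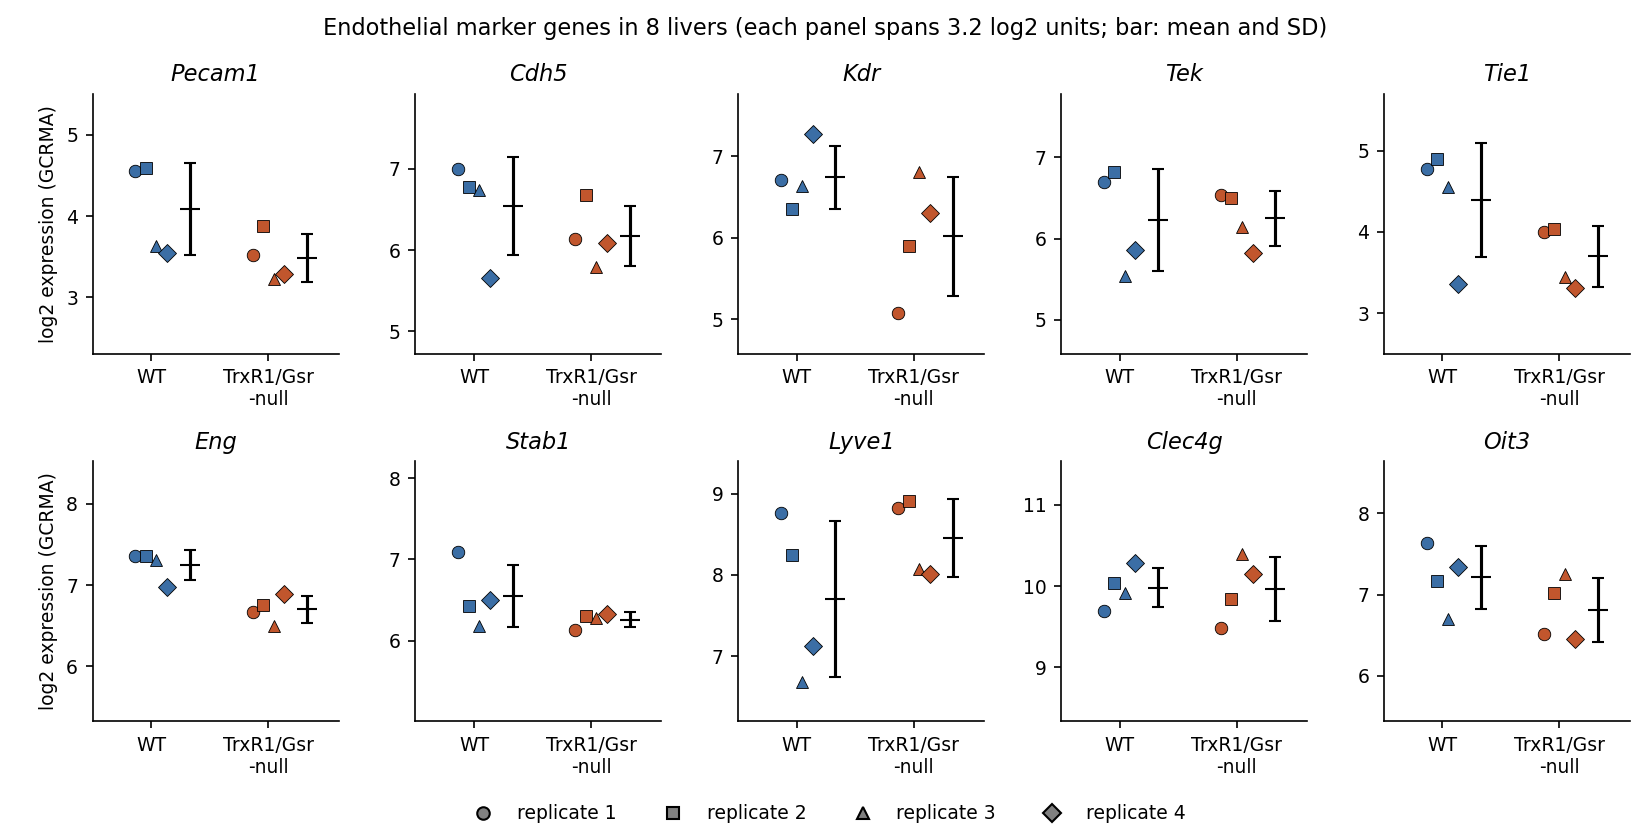
Log2 expression of the 10 markers in 4 WT (blue) and 4 TrxR1/Gsr-null (orange) livers, each point 1 animal and each symbol a replicate number, with the mean and SD (n = 4) beside them. Every panel spans the same number of log2 units; the groups do not overlap in the Eng panel, and in the other 9 panels they do.

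Eng, or endoglin, is a co-receptor for the BMP ligands of the circulation and for TGF-beta on endothelial cells. At its brighter probe set the 4 WT livers read 7.36, 7.36, 7.31 and 6.98 and the 4 null livers 6.67, 6.75, 6.49 and 6.89. All null values lay below all WT values, and Eng was the only marker for which the groups did not overlap. Among all genes 5.84% had all null values below all WT values and 10.7% had them above. The mean went from 7.25 ± 0.18 to 6.70 ± 0.17 (SD, n = 4), a log2 difference of -0.55 ± 0.18 (SE, 95% interval -0.94 to -0.16) or 1.46-fold lower, with adjusted p = 0.0969. The other Eng probe set moved by the same size, -0.54 ± 0.29 (SE), but with overlapping groups (5.33 to 6.54 in WT and 5.36 to 6.10 in the null livers, adjusted p = 0.329 over all probe sets). Its lowest value was in WT replicate 4, at 5.33, and that animal was also the lowest WT value at the brighter probe set.

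Tie1 and Kdr had differences of a like size with wider spreads. Tie1 is an orphan receptor that works together with Tek. Its WT livers read 4.77, 4.89, 4.55 and 3.36 and its null livers 4.00, 4.03, 3.45 and 3.31. WT replicate 4 lay among the null values, and that value and null replicate 4 fell below the low-value limit. The difference was -0.70 ± 0.34 (SE, adjusted p = 0.257). Kdr is the main signalling receptor for the growth factor VEGF-A. Its WT livers read 6.71, 6.35, 6.64 and 7.28 and its null livers 5.07, 5.90, 6.80 and 6.30, with null replicate 1 far below the rest and null replicate 3 above 3 of the WT values. The difference was -0.72 ± 0.35 (SE, adjusted p = 0.255), and -0.41 without null replicate 1. Tek, the receptor for the angiopoietins, showed no difference between the means. It read 6.69, 6.82, 5.55 and 5.86 in WT and 6.53, 6.498, 6.14 and 5.82 in the null livers, a difference of 0.02 with a 95% interval of -0.67 to 0.71 (adjusted p = 0.984). Its sign turned with the scaling between arrays, to -0.17 after quantile normalization and to -0.048 with the arrays' medians made equal. These scalings moved the median of all genes by -0.11 and -0.065, and the second moves every gene alike, so its turn of sign is that shift.

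The 250 bases upstream of the start sites of Eng, Tie1 and Kdr are shown. These had the largest differences among the 6 markers matched in the RefSeq table. The bases are shown since ETS factors, which commonly bind around a GGAA core, are known regulators of endothelial genes. Sequences are from RefSeq (GRCm38.p6), 5′ to 3′ on the gene's strand. Eng lies at chr2:32646345-32646594 on the plus strand, Tie1 at chr4:118489850-118490099 on the minus strand and Kdr at chr5:75978456-75978705 on the minus strand. Capitals mark AGGAAG, an ETS-type core, or its reverse complement CTTCCT.
Eng: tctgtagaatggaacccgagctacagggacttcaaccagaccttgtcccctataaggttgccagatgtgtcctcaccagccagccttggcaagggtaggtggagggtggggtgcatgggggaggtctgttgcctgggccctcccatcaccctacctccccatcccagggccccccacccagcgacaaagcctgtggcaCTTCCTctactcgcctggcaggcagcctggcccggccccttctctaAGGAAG
Tie1: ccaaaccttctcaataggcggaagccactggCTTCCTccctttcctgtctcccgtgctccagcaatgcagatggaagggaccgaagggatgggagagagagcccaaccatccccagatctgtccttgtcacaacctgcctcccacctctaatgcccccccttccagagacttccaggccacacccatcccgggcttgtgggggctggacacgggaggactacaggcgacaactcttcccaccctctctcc
Kdr: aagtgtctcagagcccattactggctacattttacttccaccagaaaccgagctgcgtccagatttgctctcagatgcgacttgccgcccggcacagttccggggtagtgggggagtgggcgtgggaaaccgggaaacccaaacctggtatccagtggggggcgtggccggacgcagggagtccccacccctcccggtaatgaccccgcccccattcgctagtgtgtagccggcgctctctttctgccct
In this window Eng held the motif 2 times, beginning 52 and 6 bases before the start site, Tie1 held it once, 219 bases before, and Kdr held none. Other stretches with GGAA or its reverse complement TTCC, which the Eng, Tie1 and Kdr windows hold, were not counted. Of the 6 markers matched in the RefSeq table, by symbol, 4 (Tie1, Eng, Stab1 and Clec4g) held it, and 29.5% of all 32851 promoters did. The motif AGATAA or its reverse complement TTATCT, which is the core for GATA factors, was in none of the 6 and in 9.99% of all promoters. The motifs do not overlap in their letters, and a match in letters is only a description. Pecam1, Cdh5, Lyve1 and Oit3 were not matched.

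**Figure D2:**
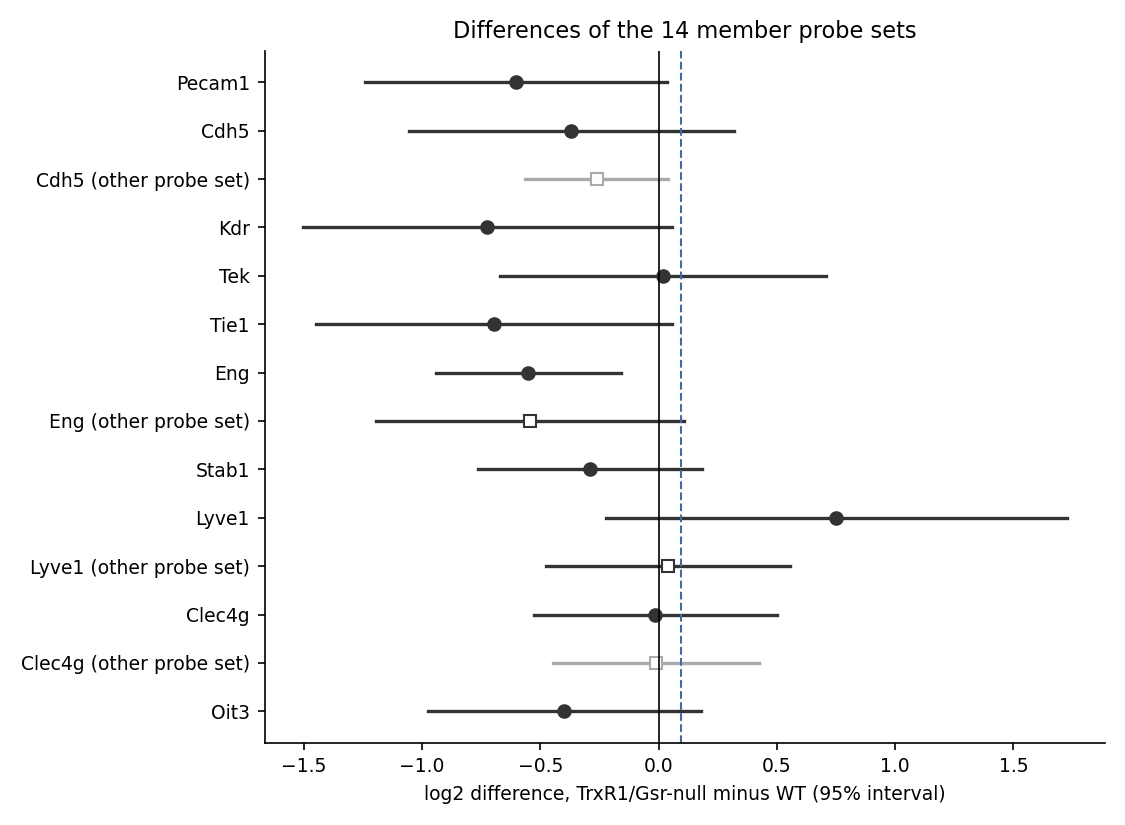
Log2 differences (TrxR1/Gsr-null minus WT) of the 14 probe sets with 95% limma intervals; filled circles are the probe sets used for the gene, open squares the other probe sets, grey those below the limit on low values, and the dashed line is the median of all genes, 0.10. The interval of the brighter Eng probe set ends at -0.16; the other 13 intervals hold 0.

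The adhesion genes were lower on average and overlapped. Pecam1, or CD31, holds endothelial cells to each other and is used as a marker of endothelium in every organ. It read 4.56, 4.59, 3.63 and 3.55 in WT and 3.53, 3.88, 3.23 and 3.29 in the null livers. WT replicates 3 and 4 lay within the range of the null livers and WT replicates 1 and 2 above it. The difference was -0.60 ± 0.29 (SE, 1.52-fold, adjusted p = 0.246). Its values stood just above the low-value limit, and 2 null values fell below it. Cdh5, the cadherin of endothelial junctions, read 6.999, 6.77, 6.73 and 5.65 in WT and 6.14, 6.67, 5.79 and 6.08 in the null livers. WT replicate 4 was again the lowest WT value, here below every null value, and the difference was -0.37 ± 0.31 (SE, adjusted p = 0.52). It was -0.66 without WT replicate 4, -0.21 without WT replicate 1 and -0.24 without null replicate 3. The second Cdh5 probe set did not pass the filter, with values of 2.25 to 2.80, and its difference was -0.26.

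Among the sinusoidal scavenger receptors, Stab1 and Lyve1 differed in opposite directions without being called. Stab1, or stabilin-1, takes up modified proteins and growth factors from the blood. It read 7.09, 6.43, 6.17 and 6.502 in WT and 6.13, 6.30, 6.28 and 6.33 in the null livers, close together in the null group (SD 0.09) and spread by WT replicate 1 in the other (SD 0.39). The difference was -0.29 ± 0.21 (SE, adjusted p = 0.456), and -0.11 without WT replicate 1. Lyve1 is a receptor for hyaluronan that sinusoidal and lymphatic endothelium carry. Its brighter probe set read 8.76, 8.24, 6.69 and 7.12 in WT and 8.82, 8.91, 8.07 and 8.01 in the null livers. WT replicates 3 and 4 were the lowest of the 8 livers. The means were 7.70 ± 0.96 and 8.45 ± 0.48 (SD, n = 4), a difference of 0.75 ± 0.44 (SE, adjusted p = 0.345). Without WT replicates 3 and 4, but with null replicates 3 and 4 kept, the difference was -0.046. Its other probe set gave 0.04 ± 0.23 (SE), with 4.27 to 5.32 in WT and 4.79 to 4.99 in the null livers, so the probe sets of Lyve1 disagreed in size.

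Clec4g and Oit3 did not separate the groups either. Clec4g, or LSECtin, is a lectin of liver and lymph node sinusoidal endothelium. It read 9.70, 10.04, 9.91 and 10.28 in WT and 9.49, 9.84, 10.39 and 10.15 in the null livers. The means were 9.98 ± 0.24 and 9.97 ± 0.39 (SD, n = 4), with a 95% interval of the difference from -0.53 to 0.50. The second Clec4g probe set did not pass the filter and ranged from 2.19 to 3.06. Oit3 is a protein with strong expression in liver that is used as a marker of sinusoidal endothelium. It read 7.64, 7.17, 6.70 and 7.34 in WT and 6.52, 7.02, 7.26 and 6.45 in the null livers, a difference of -0.40 ± 0.26 (SE, adjusted p = 0.399).

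Over all probe sets, 1.64% were called lower and 3.85% higher, and none of the 12 marker probe sets that passed the filter was called. Some other ways of processing called up to 2 of the genes. With quantile normalization Eng was called lower (-0.72, adjusted p = 0.0229, where 3.59% of all genes were called lower). That scaling moved the median of all genes by -0.11, and relative to the median of all genes the markers' median was -0.55 in place of -0.48. With array weights Eng (adjusted p = 0.0141) and Tie1 (adjusted p = 0.0318) were called lower, with 5.68% of all genes. Without WT replicate 4, Tie1 was called lower (-1.04, adjusted p = 0.036, against 1.67% of all genes). Without WT replicates 3 and 4 Pecam1 and Tie1 were called lower, with differences of -1.09 (adjusted p = 0.0378) and -1.13 (adjusted p = 0.0499), where 1.83% of all genes were.

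**Figure D3:**
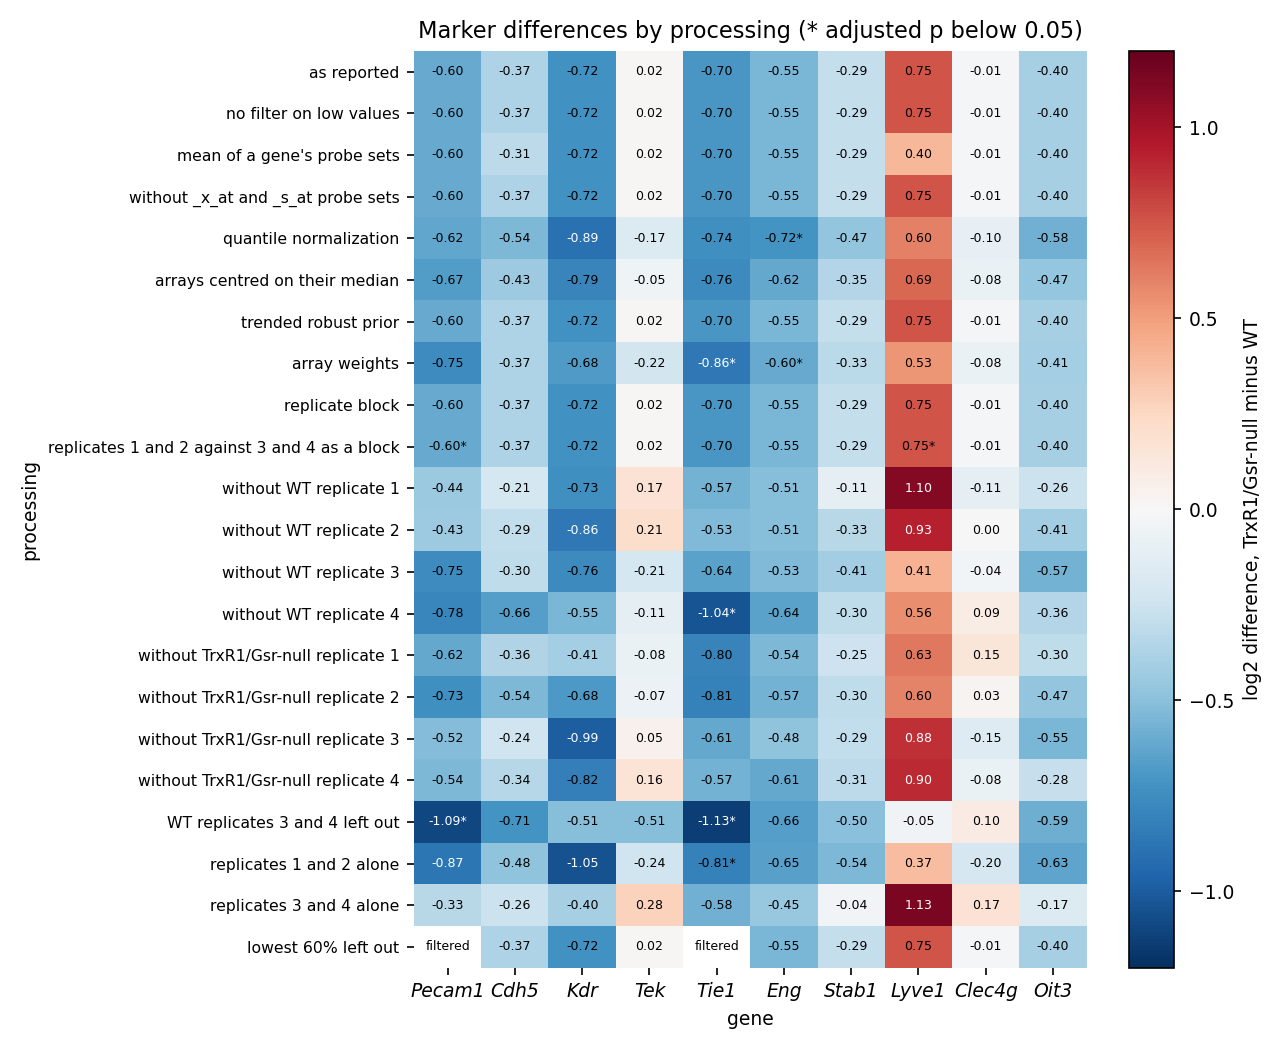
Log2 differences (TrxR1/Gsr-null minus WT) of the 10 markers, a column for each gene, under the processing reported and 21 alternatives, with an asterisk where the adjusted p was below 0.05. Cdh5, Kdr, Tie1, Eng, Stab1, Oit3 and Pecam1 stay negative in every setting that tested them, Tek and Clec4g change sign, and Lyve1 falls to -0.046 without WT replicates 3 and 4.

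Across animals the markers did not vary as 1 group. Each group's mean was taken out first, which removes the difference in means but not in spread. Pearson r over the 8 arrays was then above 0.5 in 16 of 45 marker pairs and below -0.5 in 6. WT livers spread more than null livers in Lyve1 (SD 0.96 against 0.48) and Pecam1 (0.57 against 0.30), and less in Kdr (0.39 against 0.73). The group with the wider spread weighs more in r. Tek and Lyve1 varied most alike (r = 0.95), then Pecam1 with Lyve1 (0.93) and with Tek (0.91), then Cdh5 with Tie1 (0.90). Kdr and Clec4g went together (0.88) and opposite to most of the others, with -0.71 for Kdr with Tie1 and -0.70 for Clec4g with Tie1. These points share 8 arrays and their quality, so r is given as a description. The share of all gene pairs past these limits was not computed, so the counts do not set the markers apart from other genes.

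**Figure D4:**
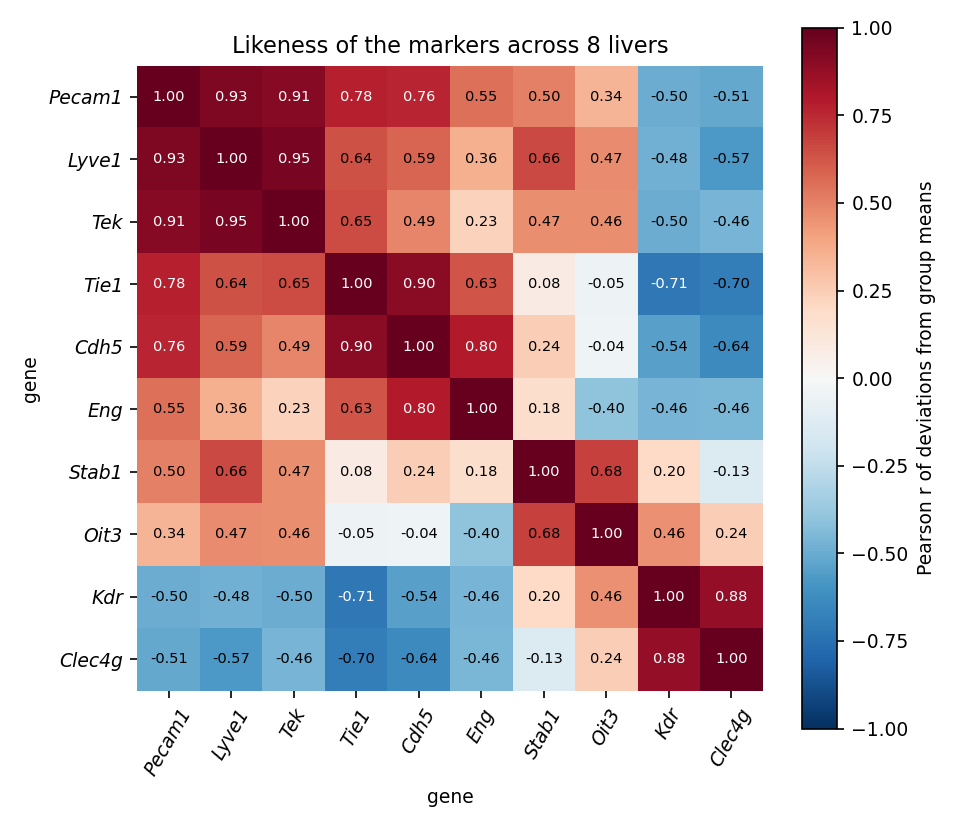
Pearson r between each pair of the 10 markers over 8 arrays, computed on deviations from the group mean (4 WT and 4 TrxR1/Gsr-null livers). Pecam1, Lyve1, Tek, Tie1 and Cdh5 form a block of positive r, from 0.49 to 0.95, and Kdr and Clec4g are positively related to each other and negatively to those 5.

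The same pattern appears when replicates 1 and 2 of both genotypes are set against replicates 3 and 4, a division that was seen in these arrays and is named in no label, so the calls on it are a description. Given the genotype, Lyve1 (-1.21), Tek (-0.79) and Pecam1 (-0.71) were called lower in replicates 3 and 4, 3 of the 10 markers where 10.6% of all genes were called. Tie1 (-0.76) and Cdh5 (-0.58) were lower and Kdr (0.75) and Clec4g (0.42) higher without a call. With this division as a block, Pecam1 was called lower between the genotypes (adjusted p = 0.0467, where 4.43% of all genes were) and Lyve1 higher (adjusted p = 0.0482, where 8.59% were). Without it limma gave adjusted p = 0.246 and 0.345. As the division was taken from these same arrays, genotype calls that use it are a description too. Within replicates 1 and 2 alone Tie1 was called lower (-0.81, adjusted p = 0.0435, with 3.13% of all genes), and within replicates 3 and 4 alone no marker was called. The Lyve1 difference was 0.37 within replicates 1 and 2 and 1.13 within replicates 3 and 4, and that of Pecam1 -0.87 and -0.33. The Actb difference between 3′ and 5′ ends was high on 3 of the 4 arrays of replicates 3 and 4 while that of Gapdh was not (-0.70 to -0.23, against -0.45 to -0.26 for replicates 1 and 2), and the part of RNA quality in these differences was not tested.

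Outside the markers and the other endothelial genes, the 5 genes whose deviations were most like the mean standardised deviation of the 10 markers were Mrnip (r = 0.99), 0610040J01Rik (0.99), Ap4s1 (0.98), Sbf2 (0.98) and Selenos (0.98), over 8 arrays and among the genes tested. They were picked for the highest r, so its size is not evidence of a link to the markers. None of these 5 genes was called between the genotypes. Sbf2 had all null values below all WT values (5.44 to 5.82 against 5.86 to 6.54, adjusted p = 0.114). The markers' own r with that mean ran from -0.26 for Clec4g to 0.91 for Pecam1.

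Other genes known from endothelium in general had lower means in the null livers more often than higher ones. Of 30 such genes 29 were on the array and 24 passed the filter, 20 with a lower mean and a median difference of -0.27, and 1 was called lower and none higher. Without WT replicate 1 the median was -0.075 with 14 lower means, within replicates 3 and 4 alone -0.050 with 13, and without the filter, over 29 genes, -0.10. The called gene was Ramp2, which pairs with the receptor for adrenomedullin and keeps vessels tight. It read 5.395, 5.28, 5.36 and 5.95 in WT and 4.44, 4.66, 4.38 and 4.94 in the null livers, without overlap, a difference of -0.89 ± 0.21 (SE, 1.85-fold, adjusted p = 0.0343). That call was lost in each of 7 fits that left out 1 array (WT replicate 1, 2, 3 or 4, or null replicate 1, 2 or 3; adjusted p 0.0507 to 0.0991) and held without null replicate 4. It was also lost without WT replicates 3 and 4 (adjusted p = 0.104), within replicates 1 and 2 alone (0.0553) and within replicates 3 and 4 alone (0.153). Flt1, the VEGF receptor related to Kdr, differed by -0.19 (adjusted p = 0.587) and Emcn, the sialomucin endomucin, by -0.24 (adjusted p = 0.665). Plvap, which forms the diaphragms of endothelial pores, and Egfl7, a protein endothelium secretes, were noticed after their values were seen. Plvap read 8.89 to 9.29 in WT and 7.54 to 8.83 in the null livers (-0.91, adjusted p = 0.0688), and Egfl7 5.43 to 6.68 and 4.73 to 5.42 (-0.997, adjusted p = 0.0807), both without overlap. Fli1, also noticed after its values were seen, went the other way with overlapping groups (0.63, adjusted p = 0.12). At an unadjusted limma p under 0.05, 3 genes of the list were lower and 1 higher, beside 7.92% and 14.9% of all genes. With the replicate number as a block, where 3.19% of all genes were called lower and 6.03% higher, 3 genes of the list were called lower, Ramp2, Plvap (adjusted p = 0.0331) and Egfl7 (adjusted p = 0.018).

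Genes tied to sinusoidal endothelium gave a median nearer to 0. Some of them, such as Ctsl and Icam1, are expressed by other liver cells too. Of 27 written, 26 were on the array and 21 passed the filter, 12 with a lower mean, none called in either direction and a median of -0.09. At an unadjusted limma p under 0.05, 4 were lower and 1 higher, where 7.92% of all genes were lower and 14.9% higher. The lower ones were Stab2, Ehd3 (-0.63, adjusted p = 0.103), Dnase1l3 (-0.72, adjusted p = 0.193) and Ltbp4 (-0.89, adjusted p = 0.184). All but Stab2 are named after their values were seen. The higher one was Bmp2, noticed after its values were seen. It read 5.41 to 6.21 in WT and 6.22 to 6.86 in the null livers, without overlap (0.72, adjusted p = 0.105). Stab2, the hyaluronan scavenger receptor related to Stab1, read 8.59, 8.53, 8.72 and 9.05 in WT and 7.87, 7.99, 8.08 and 8.35 in the null livers. The groups did not overlap, and the difference was -0.65 ± 0.19 (SE, adjusted p = 0.0722). With the replicate block Stab2 was called lower (adjusted p = 0.0479), the 1 call of this list there. Mrc1, the mannose receptor that macrophages carry too, differed by -0.13 (adjusted p = 0.671).

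The partners of the marker receptors did not move as a group. Of 21 ligands and receptor partners 12 passed the filter, with a median difference of 0.27, 5 lower and 7 higher means, 1 called higher and none called lower. Without the filter the median over all 21 was -0.084 with 13 lower means, and without null replicate 3 that of the 12 was 0.14. For Kdr, its ligand Vegfa differed by -0.45 (adjusted p = 0.337), Vegfc by -0.29 and the co-receptor Nrp1 by 0.48 (adjusted p = 0.268). Vegfd, which is not set against Kdr here, differed by 1.13 (adjusted p = 0.138). It read 2.72 to 4.49 in WT, mostly below the low-value limit, and 3.59 to 5.09 in the null livers. Vegfb, a ligand of Flt1, differed by 0.78 (adjusted p = 0.313). For Tek and Tie1, Angpt1 stood below the limit on every array and Angpt2 differed by 0.36 (adjusted p = 0.386). For Eng, its ligand Gdf2, or BMP9, which the liver itself makes, read 6.04, 6.34, 5.91 and 6.52 in WT and 5.34, 5.92, 5.71 and 5.67 in the null livers. Only null replicate 2 reached the lowest WT value, and the difference was -0.55 ± 0.20 (SE, adjusted p = 0.147). The partner receptors of Eng, Acvrl1 and Bmpr2, and its ligand Bmp10 did not pass the filter. Tgfb1, a form of TGF-beta, read 4.10 to 4.53 in WT and 2.85 to 3.95 in the null livers, without overlap (-0.71, adjusted p = 0.139). Tgfbr1, the type I receptor of TGF-beta, was called higher at its brightest probe set, 1.17 ± 0.23 (SE, adjusted p = 0.0158), but differed by 0.25 (adjusted p = 0.319) as the mean of its probe sets. It was not called without WT replicates 3 and 4 either (1.06, adjusted p = 0.0536), nor within replicates 1 and 2 alone or 3 and 4 alone (adjusted p 0.0548 and 0.0678).

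A list of genes tied to BMP or Notch signalling held 2 genes called lower and none higher among 11 tested of 13. Many of them are expressed by other liver cells too. Most are targets, but Notch1 and Notch4 are receptors, Jag1 is a ligand and Hamp is made mainly by hepatocytes. The Notch targets Hey2 and Hes1 differed by -0.20 and -0.12, neither called. The list had 9 lower means and a median of -0.42, which was the difference of Notch1 itself. Of all genes 2.15% were called lower, 4.47% higher and 39.9% had a lower mean. Without the filter the median over all 13 was -0.27, with 1 gene called lower. Id1, a transcription regulator induced by BMP9 and BMP10 and, in hepatocytes, by BMP6, read 8.93, 8.23, 7.07 and 7.99 in WT and 6.24, 6.60, 6.02 and 7.27 in the null livers. Only null replicate 4 reached above the lowest WT value, and the difference was -1.52 ± 0.39 (SE, 2.87-fold, adjusted p = 0.0453). Smad7, an inhibitor of BMP and TGF-beta receptors, read 5.14, 5.18, 4.82 and 5.49 in WT and 4.08, 3.94, 3.90 and 4.59 in the null livers, without overlap (-1.03 ± 0.22 SE, adjusted p = 0.0215). The Id1 call was lost without WT replicate 1, 2 or 4 or null replicate 1, 2 or 3 (adjusted p 0.0716 to 0.124), and that of Smad7 without WT replicate 2 or null replicate 1, 2 or 3 (adjusted p 0.0513 to 0.0736). Without WT replicates 3 and 4 Smad7 was not called (adjusted p = 0.0509). Within replicates 3 and 4 alone neither was called, with -0.88 for Id1 (adjusted p = 0.336) and -0.91 for Smad7 (adjusted p = 0.206), and Id1 was not called without the filter on low values either (adjusted p = 0.069). Id2 differed by 0.07 (adjusted p = 0.923) and Id3 by -0.73 (adjusted p = 0.167). Of the partners of Cdh5 and Pecam1 at junctions, which hepatocytes express as well, 9 of 11 were tested, 3 had a lower mean and none was called. Ctnnb1, or beta-catenin, differed by 0.20 (adjusted p = 0.519) and Ctnna1, or alpha-catenin, by 0.63 (adjusted p = 0.0907).

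**Figure D5:**
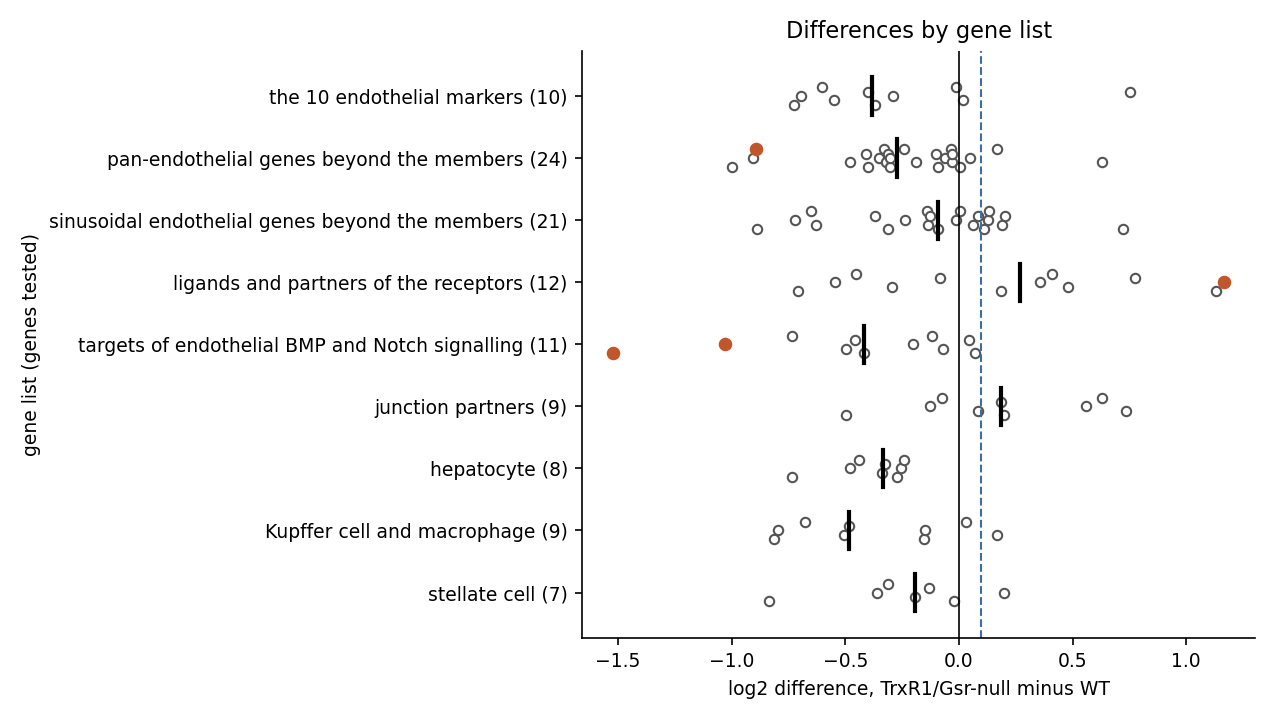
Log2 differences (TrxR1/Gsr-null minus WT) of every tested gene by list, for the lists with 5 or more tested genes; orange points are called genes, black bars the list medians and the dashed line the median of all genes, 0.10. The median of the 10 endothelial markers, -0.38, lies between those of the hepatocyte list, -0.33, and the Kupffer cell list, -0.49.

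The lists of hepatocyte, Kupffer cell and stellate cell markers had negative medians too, with no gene called, while those of bile duct (0.38) and neutrophil markers (1.22) were positive and those of T and B cell and erythroid markers lay near 0, each of these 4 over at most 2 genes. All 8 tested hepatocyte markers had a lower mean and none was called, with a median of -0.33, and the mean level of the list was 12.98 to 13.15 in WT and 12.4 to 12.8 in the null livers. Of 9 Kupffer cell and macrophage markers 7 had a lower mean and none was called, with a median of -0.49 and list means of 8.75 to 9.49 and 8.41 to 8.83. Of 7 stellate cell markers tested 6 had a lower mean and none was called (median -0.19, list means 7.75 to 8.24 and 7.36 to 8.08). The mean level of the 10 endothelial markers was 6.39 to 7.03 in WT and 6.26 to 6.58 in the null livers, and of the pan-endothelial list 5.11 to 5.54 and 5.01 to 5.15. For endothelial markers the 2 highest of the 8 livers were WT replicates 1 and 2, at 7.03 and 6.87, and WT replicates 3 and 4 lay at 6.39. The neutrophil genes S100a8 and S100a9 had higher means in the null livers (1.30, adjusted p = 0.0541, and 1.14, adjusted p = 0.108), while Elane, Mpo, Ltf, Camp and Ngp did not pass the filter. With the replicate block S100a8 was called higher (adjusted p = 0.0382) and, of the Kupffer cell list, Csf1r lower (-0.79, adjusted p = 0.0308). Of the bile duct markers Epcam was called higher (0.94, adjusted p = 0.041). All 4 of its WT values (2.51 to 3.31) lay below the low-value limit, so it passed the filter only through the null livers (3.36 to 4.11). Its call was lost without the filter (adjusted p = 0.0513), without WT replicate 1, 3 or 4 or null replicate 1, 2 or 4 (0.0683 to 0.125), without WT replicates 3 and 4 (0.147) and within replicates 3 and 4 alone (0.177). Sox9 was not called, and the other 4 on the array did not pass. Among T and B cell markers only Cd79b passed (difference 0.0043), and of the erythroid ones Alas2 (-0.29) and Slc4a1 (0.32), none called. Whether any of these differences has a part in those of the endothelial markers was not tested.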

How the data were processed

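Liver RNA of 8 mice was measured on 1 array each. The deposited table holds log2 expression values, made by the authors with GCRMA per the submitters' processing notes; for GCRMA no version or settings were found in the labels. That the scale is log2 was inferred from the values (0.53 to 14.6). Platform annotation named the probe sets, with symbols updated by gene identifier through a RefSeq table of GRCm38.p6 (20351 of 20380 matched). For each gene the brightest probe set was used, those ending in _x_at aside. The lowest 40% of genes by mean were left out unless 4 arrays exceeded that limit (7534 of 12393 genes kept); the same filter kept 13776 probe sets. Values of probe sets that failed it come from a fit without the filter.

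Genotypes were set against each other in R 4.3.3 by limma 3.58.1 (functions lmFit and eBayes, two-sided, Benjamini-Hochberg over all genes or all probe sets). The fit was tested on simulated data. The titles number the replicates and name no pairing between genotypes. Deviations of same-numbered animals correlated at 0.21 to 0.37 in all 4 pairs. Differently numbered animals were not compared in this way, so these values do not show a pairing. The reported fit took no pairing. A replicate block was run as an alternative, and it called no marker. No arrays held the same values (highest correlation 0.994). The markers and lists were chosen with earlier results of these data known, and motifs and the genes noted as such after values were seen. Named genes were all markers, called genes of each related list (up to 4 per direction) and its first 2 uncalled ones, with ligands and partners named for their role.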

Additional observations from a re-analysis of the deposited data

Results flagged for a closer look

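At the brighter Eng probe set WT replicate 4 read 6.98, apart from the other WT livers at 7.31 to 7.36; its gap to the nearest was 0.861 of the group's range, above Dixon's limit of 0.829 for 4 samples. It was 1 such value among 28 groups tested (14 probe sets in 2 genotypes), and chance flags about 5% of groups. Without WT replicate 4 the Eng difference was -0.64 (adjusted p = 0.067) in place of -0.55.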

How the results depend on the processing

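Under 21 alternatives the median difference of the markers stayed negative, from -0.59 (replicates 1 and 2 alone) to -0.21 (replicates 3 and 4 alone). The count of markers called lower, 0 as reported, was 1 with quantile normalization, 2 with array weights, 1 with replicates 1 and 2 against 3 and 4 as a block, 2 with WT replicates 3 and 4 left out, 1 within replicates 1 and 2 alone and 0 to 1 with 1 array left out; 1 marker, Lyve1, was called higher, with that block only. Of marker probe sets, 1 was called lower with quantile normalization, 3 with array weights, 1 with WT replicates 3 and 4 left out, 1 within replicates 1 and 2 alone and 0 to 1 with 1 array left out. The replicate block called 0 markers; adjusted p was 0.0855 for Tie1, 0.0893 for Lyve1 and 0.0946 for Pecam1, and outside the markers it called Plvap, Egfl7, Stab2, S100a8 and Csf1r besides the genes called without it, with no other call changed among the lists. Tek turned to -0.17 (quantile normalization), -0.048 (median centring), -0.22 (array weights), -0.51 (WT replicates 3 and 4 left out) and -0.24 (replicates 1 and 2 alone), and lay between -0.21 and 0.21 with 1 array left out. Clec4g turned to 0.10 (WT replicates 3 and 4 left out) and 0.17 (replicates 3 and 4 alone), and lay between -0.15 and 0.15 with 1 array left out. Lyve1 turned to -0.046 with WT replicates 3 and 4 left out. The causes were not tested. The division into replicates 1 and 2 and replicates 3 and 4 was seen in these arrays, so calls that use it are a description. Pecam1 and Tie1 were not tested with the lowest 60% of genes left out. The 4 arrays a group and values near background (Pecam1, Tie1) limit what can be seen. The limma p-values set a difference against the spread between these animals, pulled toward that of all genes tested.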
